A study of Homo sapiens with 8 samples.

Results

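RPL11, RPL22 and RPS27 are 3 ribosomal protein genes of chromosome 1, and the counts at their positions were followed here in human cells and in the microvesicles those cells released. The deposited table has 63568 rows, 1 for each annotated gene in hg19, and all 1190053 counts lie on the 5363 rows of chromosome 1. Members were chosen by position: a chromosome 1 row belongs to a locus if an exon interval of the row overlaps the place that the GRCh38 assembly gives RPL11, RPL22 or RPS27. This rule found 5 rows. At the RPL11 position lie the rows labelled ZNF436, ZNF436-AS1 and a Y_RNA, at the RPL22 position the row labelled CHD5, and at the RPS27 position the row labelled NUP210L. They were set beside the 3 rows that carry the symbols RPL11, RPL22 and RPS27 themselves.

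The cells were HEK 293T, a human embryonic kidney line. Every culture received a GFP-binding protein joined to CD9, a tetraspanin of vesicle membranes, together with a GFP plasmid, by lipofection. In the construct cultures the GFP was fused to YTHDF1, a protein that reads N6-methyladenosine in messenger RNA and acts in translation, and in the control cultures it was GFP alone. All cultures grew in medium with exosome-depleted serum and RNase A. Total RNA from cell lysates and from microvesicles, which were pelleted by ultracentrifugation and passed through a filter, was sequenced after SMART-Seq2 and Nextera preparation. There were 2 libraries in each of 4 groups: construct cells II and III, control cells I and II, construct microvesicles II and III, and control microvesicles I and II. Nothing in the labels says that the 2 came from separate cultures, so the p-values below measure spread between libraries that may be technical only.

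Ribosomal proteins join ribosomal RNA to form the 2 subunits of the ribosome. RPL11 belongs to the large subunit, where it enters with RPL5 and the 5S ribosomal RNA, and outside the ribosome it can bind MDM2 and so stabilise p53. RPL22 is another protein of the large subunit, and RPS27 is a zinc finger protein of the small subunit. Messenger RNAs of such proteins are abundant in growing cells and begin with a run of pyrimidines, the 5′ terminal oligopyrimidine or TOP motif, through which mTOR signalling controls their translation.

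The start sites of the 3 genes are shown because they carry that shared feature, which the choice of members did not use. Each line has 20 bases before the start and 20 from it, from RefSeq promoters on GRCh38.p14, 5′ to 3′ on the gene's own strand. Capitals mark the unbroken run of C and T that begins at the first transcribed base.
RPL11, chr1:23691786-23691825, plus strand: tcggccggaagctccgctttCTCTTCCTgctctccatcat
RPL22, chr1:6199576-6199615, minus strand: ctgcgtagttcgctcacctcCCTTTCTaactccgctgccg
RPS27, chr1:153990742-153990781, plus strand: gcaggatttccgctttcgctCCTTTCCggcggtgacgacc
The run was 8 bases long in RPL11 and 7 bases in RPL22 and in RPS27. All 3 begin with C. A C at the start followed by a pyrimidine run of at least 5 bases in all was found, on the gene's strand only, at 1429 of 35116 RefSeq starts (4.07%). RefSeq lists another RPL11 start in the same table, and the run at it is 0 bases long. The match describes the letters at the annotated start; the counts do not show where transcripts began.

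Library totals ran from 34602 counts in construct microvesicles II to 479140 in control microvesicles II, and the construct libraries of each compartment were shallower than the control ones. Rows LINC01128 and TP53BP2 held 11.7% to 68.5% of the counts of each microvesicle library and 0.0440% to 0.0978% of each cell library. The transfected genes do not lie on chromosome 1, so the construct could not be checked. Of 12 marker genes for leukocytes, keratinocytes, neutrophils and endothelium, 7 had a row at their position, 16 rows in all with 2 of them at 0. The summed share of these rows was 0.0687% to 0.0767% in cells and 0.00867% to 0.166% in microvesicles. Rows at their symbols, 12 in all with 1 (LORICRIN) at 0, summed to 0.317% to 0.364% in cells and 0.0636% to 0.227% in microvesicles. The types moved in opposite ways by symbol. The 4 leukocyte rows summed to 0.295% to 0.348% in cells, mostly in row CD53, and to 0% to 0.0319% in microvesicles. The 4 keratinocyte rows summed to 0.00341% to 0.0140% in cells and 0.0578% to 0.184% in microvesicles, mostly in rows FLG and IVL. The part of the marker rows in the results was not tested. No marker of HEK 293T cells was among the lists.

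The rows at the 3 positions were among the most abundant of the cell libraries, whereas the rows named RPL11 and RPL22 were nearly empty. At the RPL11 position, row ZNF436 (ENSG00000125945.10, minus strand, 23685941 to 23695935 of chromosome 1 in hg19) held 139 and 220 counts in construct cells and 547 and 1131 in control cells. In microvesicles it held 92 and 36 counts in the construct libraries and 598 and 601 in the control ones. Row ZNF436-AS1 (ENSG00000249087.3, plus strand, 23695490 to 23698332) held 241 and 341 in construct cells, 799 and 1324 in control cells, 105 and 30 in construct microvesicles, and 575 and 505 in control microvesicles. Both rows were thus well covered in every library except construct microvesicles III, where they were lowest. The Y_RNA row (ENSG00000201405.1, 23696747 to 23696839), which lies inside that same position, had 0 counts in all 8 libraries. In the deepest library a count of 0 allows a share of up to 0.000626%.

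Row CHD5 (ENSG00000116254.13, minus strand, 6161853 to 6240183), at the RPL22 position, held 120 and 145 counts in construct cells, 343 and 625 in control cells, 55 and 47 in construct microvesicles, and 410 and 390 in control microvesicles. Row NUP210L (ENSG00000143552.5, minus strand, 153965161 to 154127592), at the RPS27 position, held 130 and 191, 431 and 750, 37 and 83, and 456 and 434 in the same order. Counts of these rows, too, were fewest in the construct microvesicles, whose libraries were shallower than those of control microvesicles. By share of all counts, the lowest library at the RPS27 position was control microvesicles II, at 0.0906%.

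Set against these, the row that carries the symbol RPL11 (ENSG00000142676.8, 24018269 to 24022915) had 7 counts over the 8 libraries. The row RPL22 (ENSG00000116251.5, 6241329 to 6269449) had 0 counts in the 4 cell libraries, which allows a share of at most 0.00184% to 0.00698%, and 0, 9, 19 and 6 counts in construct microvesicles II and III and control microvesicles I and II. The row RPS27 (ENSG00000177954.7, 153963235 to 153964626) had more counts in cells, where row RPL11 had 1, with 35 and 32 in construct and 97 and 111 in control libraries. It was almost empty in microvesicles, with 0 and 2 in construct and 0 and 0 in control libraries.

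At the positions of its exon intervals, the GRCh38 assembly places other genes. Row RPL11 lies wholly within a noncoding gene, LOC105376863, row RPL22 mainly over GPR153, HES3 and ACOT7, and the whole of row RPS27, 946 exonic bases, within SLC39A1, a zinc transporter gene. Why the symbols and the positions part was not tested.

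How much of each member row lies over the ribosomal protein gene differed; overlap is with the whole RefSeq gene from start to end, introns included. Of the 4392 exonic bases of row ZNF436, 618 (14.1%, in 3 of its 4 exon intervals) fall within RPL11. Row ZNF436-AS1 has 2655 exonic bases, of which 1158 (43.6%) fall within RPL11 as RefSeq places it. For CHD5, 27 of 44 intervals overlap the RPL22 position, and RefSeq puts 21.2% of the 9890 exonic bases on RPL22, 47.9% on CHD5 itself, 16.1% on RNF207 and 1.29% on ICMT. For NUP210L, 1 of 40 intervals and 137 of 5889 bases (2.33%) fall within RPS27, while 77.9% fall within NUP210L and others within SLC39A1, CREB3L4, JTB and RAB13. More bases than within RPS27, 176 (2.99%), fall within the pseudogene RPL34P5, and 1.44% within the pseudogene LOC124904673. The table gives 1 count for all exon intervals of a row, so the counts of CHD5 and NUP210L cannot be assigned to RPL22 and RPS27 alone. The library kit does not mark strand, so ZNF436 and ZNF436-AS1, which overlap on opposite strands, cannot be told apart where they overlap.

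Per length, the member rows stood above most rows around them. Summed over the 4 cell libraries, ZNF436-AS1 had 1019 counts per kb of exon, ZNF436 had 464, NUP210L 255 and CHD5 125. The median over the 3252 rows with a count in cells was 4.12. By count in cells the 4 rows ranked 27, 41, 63 and 70. Of the nearest 3 rows with a count on each side of the RPL11 position, 5 had 0.735 to 7.69 counts per kb in cells, and TCEA3 had 153. Around the RPL22 position the range was 0 to 2.73, except for RNF207 at 66.5. Around the RPS27 position it was 3.53 to 19.8, except for the row RPS27 at 291. The density plot shows ZNF436, ZNF436-AS1 and CHD5 far above the rows RPL11 and RPL22 in cells. At RPS27 this did not hold, since the row with the symbol, at 291, was denser than NUP210L, at 255.

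**Figure D1:**
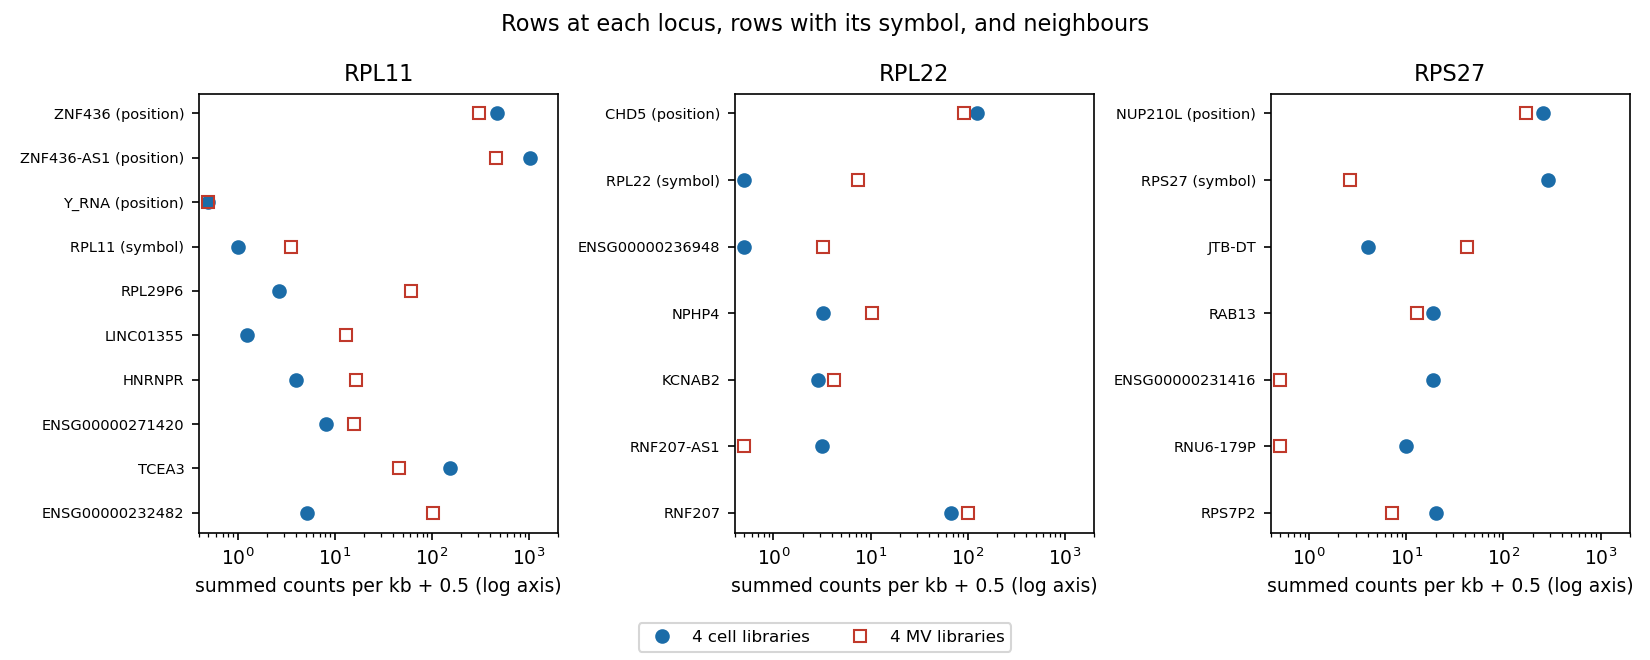
Counts per kb of exon plus 0.5 (log axis), summed over the 4 cell libraries (filled circles) and the 4 microvesicle (MV) libraries (open squares), for the rows at each position, the rows with the symbol and the nearest rows with a count. ZNF436-AS1, at 1019 in cells, is the highest. Of the rows with the symbols only RPS27, at 291 in cells, reaches the member rows, above NUP210L at 255 and CHD5 at 125.

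The first question was whether the rows at these positions took the same share of counts in microvesicles as in cells. By share of all counts they took a smaller one, by an amount that depended on rows LINC01128 and TP53BP2. No member row passed in the main fit of the model over all rows, given below. At the RPL11 position the share of all counts was 0.885% and 0.956% in construct cells and 1.23% and 1.505% in control cells. It was 0.569% and 0.103% in construct microvesicles and 0.492% and 0.231% in control microvesicles. All 4 microvesicle libraries were below all 4 cell libraries. The 95% Wilson intervals, which cover counting error only, were 0.0810% to 0.131% at the lowest share, 0.495% to 0.654% at the highest microvesicle share and 0.800% to 0.978% at the lowest cell share. The mean was 1.14% ± 0.283 (SD, n = 4) in cells and 0.349% ± 0.219 (SD, n = 4) in microvesicles, 3.28-fold lower (exact permutation test, two-sided, p = 0.0286, the smallest that 70 arrangements can give). Here and in the exact tests of shares below, libraries were shuffled freely, ignoring construct and the pairing of microvesicles with lysate. A permutation within pairs was not run and could not have reached so small a p.

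At the RPL22 position the shares were 0.279% and 0.247% in construct cells, 0.314% and 0.383% in control cells, 0.159% and 0.0734% in construct microvesicles, and 0.172% and 0.0814% in control microvesicles. The highest microvesicle share had a Wilson interval of 0.156% to 0.189% and the lowest cell share one of 0.210% to 0.291%. The groups did not overlap, and the mean fell from 0.306% ± 0.0582 (SD, n = 4) to 0.121% ± 0.0512 (SD, n = 4), 2.52-fold (exact permutation test, p = 0.0286). The RPS27 position held 0.303% and 0.326% of construct cells, 0.395% and 0.460% of control cells, 0.107% and 0.130% of construct microvesicles, and 0.191% and 0.0906% of control microvesicles. Its highest microvesicle share had an interval of 0.175% to 0.210% and its lowest cell share one of 0.255% to 0.359%. The mean was 0.371% ± 0.0711 (SD, n = 4) in cells and 0.130% ± 0.0441 (SD, n = 4) in microvesicles, 2.86-fold lower and again without overlap (exact permutation test, p = 0.0286). Shares of 6 quantities, 3 loci and 3 symbols, were tested in this way, and the p-values are not adjusted.

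These 3 shares are to be read against a common pattern: 23.5% of the 1113 rows tested had all 4 microvesicle libraries below all 4 cell libraries, and 13.6% had them all above. The rows LINC01128 and TP53BP2 moved with the result. Leaving both out of the totals, the RPL11 share was 1.94-fold lower in microvesicles with the same p of 0.0286. The RPL22 share was then 1.47-fold lower (exact permutation test, p = 0.143) and the RPS27 share 1.62-fold lower (exact permutation test, p = 0.0857), both with overlapping groups. In bulk RNA of this kind, fewer vesicles that carry a transcript and less of it per vesicle cannot be told apart.

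**Figure D2:**
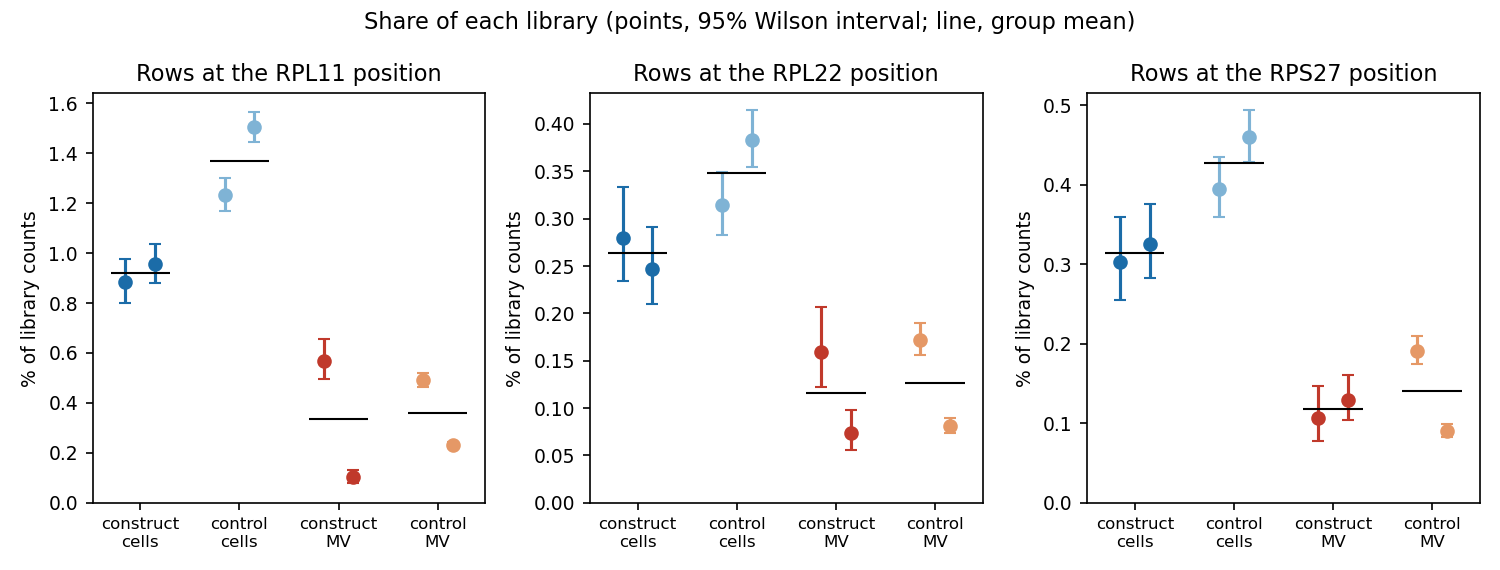
Share of library counts (percent, each panel with its own axis from 0) at the RPL11, RPL22 and RPS27 positions in the 8 libraries; points are libraries in the order of their numerals with 95% Wilson intervals, and lines are group means. Microvesicle (MV) libraries sit below cell libraries in each panel, and construct microvesicles III is lowest at RPL11, at 0.103%.

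Within each construct the direction was the same. The RPL11 share was 2.74-fold higher in cells than in microvesicles of construct cultures and 3.79-fold higher in control cultures. The folds were 2.27 and 2.75 for RPL22, and 2.66 and 3.03 for RPS27. With 2 libraries against 2, an exact test of 1 share cannot go below 0.333, so these folds were tested in a model over all rows.

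In that model, edgeR's quasi-likelihood test with TMM scaling and Benjamini-Hochberg adjustment over 1113 rows, 4 of the 5 member rows passed the filter on low counts and the Y_RNA did not. In TMM-scaled CPM, counts scaled to a common library size, ZNF436 was at 6615 ± 1939 (SD, n = 2) in control cells and 2758 ± 147 in control microvesicles, and ZNF436-AS1 at 8504 ± 1194 and 2478 ± 104. CHD5 was at 3851 ± 795 and 1838 ± 26.8, and NUP210L at 4714 ± 823 and 2045 ± 30.6. The log2 fold changes, microvesicles over cells, were -1.26 ± 0.88 (SE) for ZNF436, -1.78 ± 0.94 for ZNF436-AS1, -1.07 ± 0.76 for CHD5 and -1.20 ± 0.69 for NUP210L. None of the 4 passed at 0.05 (edgeR adjusted p = 0.261, 0.150, 0.267 and 0.181), and 0 had an unadjusted p under 0.05. In this comparison 36.6% of all rows tested were called, 20.8% as lower and 15.7% as higher, so the share of member rows called was under the background. Their median change was -1.23 against 0.39 over all rows tested. DESeq2 called 0 of the 4, and 466 of the 1113 rows (41.9%). Limma-voom with quality weights called 1 of the 4, ZNF436-AS1, and 557 of the 1113 rows.

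The calls moved with a library outside the comparison; the model shares its spread over the 4 groups, and leaving a library out also changes which rows pass the filter. Without construct microvesicles III all 4 rows passed, with ZNF436 at -1.86 (edgeR adjusted p = 0.0254), ZNF436-AS1 at -2.39 (0.00770), CHD5 at -1.67 (0.0301) and NUP210L at -1.81 (0.0216), where 410 of the 1684 rows then tested were called (24.3%), 19.2% as lower. With the rows of the full test kept, leaving it out gave 1 call among the members, ZNF436-AS1, and 551 calls (49.5%) among all 1113 rows. Leaving out construct microvesicles II with those rows kept called ZNF436-AS1 too, and 555 rows in all (49.9%).

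In construct cultures ZNF436 was at 3132 ± 610 CPM (SD, n = 2) in cells and 1504 ± 1500 in microvesicles, and ZNF436-AS1 at 5102 ± 594 and 1648 ± 1808. CHD5 was at 2340 ± 11.98 and 1056 ± 675, and NUP210L at 2809 ± 401 and 1027 ± 6.05. The microvesicle libraries of the RPL11 rows differed by more than their mean. Changes were -1.07 ± 0.89, -1.64 ± 0.94, -1.16 ± 0.77 and -1.45 ± 0.71 on the log2 scale, and none passed (edgeR adjusted p = 0.427, 0.265, 0.329 and 0.202; 0 with an unadjusted p under 0.05; 0 by DESeq2 and by limma-voom). Of all rows tested, 5.21% were called. The members' median was -1.30 against 0.38 for all rows. Without construct microvesicles II and with the same rows kept, 2 of the 4 passed: ZNF436 at -2.82 (edgeR adjusted p = 0.0450) and ZNF436-AS1 at -3.78 (0.0339). In that fit 102 of the 1113 rows were called (9.16%), 69 of them as lower. Upper-quartile factors moved the median of all rows to 1.07 in control and 0.99 in construct cultures and library size alone to 0.17 and 0.54, while RLE factors left it at 0.39 and 0.40; the members' changes stayed below 0 in 112 of 112 values over 28 alternatives in each.

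The size of change that such libraries can show was tried by simulation. In simulated libraries of the same depth, 5% of 4-fold changes between control microvesicles and control cells were called, 66% of 16-fold and 100% of 64-fold ones. The changed rows were drawn at random from all rows tested, each with its own mean level and spread. The rates hold for such rows and not for the member rows, which were among the most abundant in cells. The 95% intervals of the members' changes in control cultures reached from -3.23 to 0.70 for ZNF436 and from -2.75 to 0.34 for NUP210L.

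The row that carries the symbol RPS27 went further. It fell from 97 and 111 counts in control cells to 0 and 0 in control microvesicles. In TMM-scaled CPM this was at least 62.1-fold lower against a floor of 3 counts per library (edgeR adjusted p = 0.00366). With 1 control library left out this bound lay between 56.8 and 67.4. The row passed the filter on low counts through its counts in cells, so calls of it as lower are not independent of the filter. Of all rows tested, 20.8% were called lower in control cultures and 4.22% in construct cultures. In construct cultures 35 and 32 counts stood against 0 and 2, a ratio of 34.6 between the summed counts scaled to TMM-adjusted library sizes (interval 9.22 to 292, counting error only, and edgeR adjusted p = 0.0390). Its adjusted p stayed under 0.05 in 28 of 28 alternatives in control cultures and in 13 of 28 in construct cultures, where the highest was 0.312. Without construct microvesicles III, the library with the 2 counts, the fold was at least 7.16. Its share of counts was 0.0732% in cells and 0.000781% in microvesicles (exact permutation test, p = 0.0286). RPS27 by symbol and NUP210L, the row at the RPS27 position, thus gave folds of unlike size, and the difference between the 2 rows was not tested. Shares of the rows RPL11 and RPL22 by symbol did not differ beyond their spread (exact permutation tests, p = 0.543 and p = 0.143); without construct microvesicles II, where row RPL22 had 0 counts, its p was 0.0286.

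The second question was whether the YTHDF1 fusion changed these loci. In microvesicles, construct over control, the log2 changes were -0.89 ± 0.88 (SE) for ZNF436, -0.60 ± 0.92 for ZNF436-AS1, -0.81 ± 0.76 for CHD5 and -0.99 ± 0.70 for NUP210L. No member row passed (edgeR adjusted p = 0.580, 0.736, 0.560 and 0.431; 0 with an unadjusted p under 0.05; 0 by DESeq2 and by limma-voom), where 6.2% of all rows tested were called, 4.76% as higher and 1.44% as lower. The median of the members was -0.85 and that of all rows -0.24. By share the groups overlapped, with control over construct folds of 1.08 at RPL11, 1.09 at RPL22 and 1.19 at RPS27. Without construct microvesicles III the changes of ZNF436, ZNF436-AS1 and CHD5 turned to 0.22, 0.57 and 0.065. Without construct microvesicles II and with the same rows kept, ZNF436-AS1 passed as lower, at -2.74 (edgeR adjusted p = 0.0411), where 0.809% of all rows were called lower.

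Cells gave lower values in the construct cultures. By share, control over construct folds were 1.49 at RPL11, 1.33 at RPL22 and 1.36 at RPS27. Depth also differed, since the control cell libraries had 109099 and 163157 counts and the construct ones 42950 and 58664. The part of depth was not tested. The model gave -1.08 ± 0.88 for ZNF436, -0.74 ± 0.92 for ZNF436-AS1, -0.72 ± 0.75 for CHD5 and -0.75 ± 0.69 for NUP210L, each with an edgeR adjusted p of 1. Over all rows 0 were called (0%), with 10 at an unadjusted p under 0.05, and DESeq2 and limma-voom called 0 as well. In a fit of the 4 cell libraries alone, with the same rows kept, ZNF436 was called lower in construct cells (-0.93, edgeR adjusted p = 0.000918), as 1 of 21 rows called there (1.89%), all 21 of them lower. The median was -0.74 for the members and -0.16 for all rows.

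**Figure D3:**
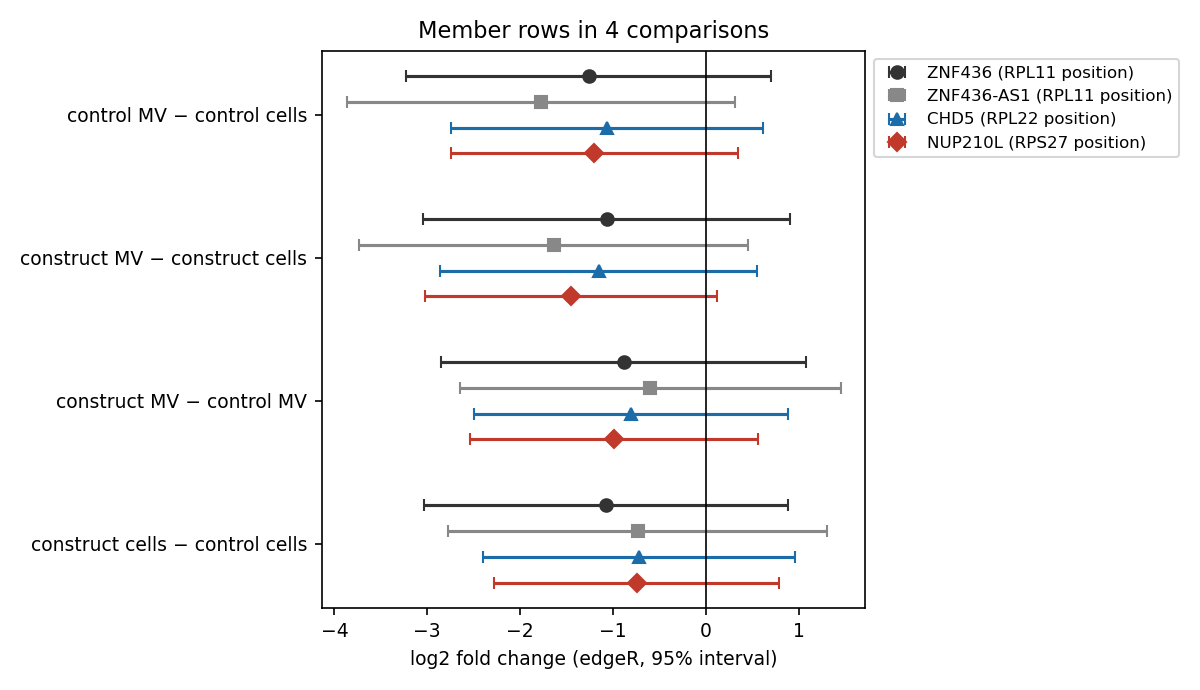
Log2 fold changes from edgeR with 95% intervals (horizontal bars) for the 4 tested member rows in 4 comparisons, 2 libraries a group (MV, microvesicles). Every point lies below 0 and every interval crosses 0, from -1.78 for ZNF436-AS1 in control cultures to -0.60 for the same row between microvesicles.

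The change from cells to microvesicles was compared between construct and control cultures by the interaction term. It was 0.19 ± 1.24 (SE) for ZNF436, 0.14 ± 1.30 for ZNF436-AS1, -0.09 ± 1.06 for CHD5 and -0.25 ± 0.97 for NUP210L, with edgeR adjusted p from 0.967 to 1.00. Of all rows tested, 1.8% were called, 1.71% as higher and 0.0898% as lower, and 0 of the 4 members (0 by DESeq2 and by limma-voom, and 0 at an unadjusted p under 0.05). The intervals, from -2.56 to 2.95 for ZNF436 and from -2.41 to 1.92 for NUP210L, are wide, so cultures that act alike are not shown by the absence of calls.

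Ratios between loci within a library do not depend on scaling or on what other rows hold. They also depend on the lengths of the rows, so they are compared only from library to library. The RPL11 position had 3.17 and 3.87 times the counts of the RPL22 position in construct cells and 3.92 and 3.93 times in control cells. In microvesicles the ratios were 3.58 and 1.40 in construct libraries II and III and 2.86 and 2.84 in control libraries. The cell libraries and construct microvesicles II lay together. Control microvesicles lay below control cells, with exact 95% intervals up to 3.21 against intervals from 3.48, and construct microvesicles III was lowest, with an interval of 0.951 to 2.09.

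Against RPS27 the RPL11 position had 2.92, 2.94, 3.12 and 3.27 times the counts in the cell libraries and 2.57 and 2.55 times in control microvesicles. Construct microvesicles II and III lay on either side of these, at 5.32 (interval 3.73 to 7.78) and 0.795 (interval 0.567 to 1.11). The RPS27 position had 1.08, 1.32, 1.26 and 1.20 times the counts of the RPL22 position in cells and 1.11 and 1.11 in control microvesicles, again with construct microvesicles II below, at 0.673, and III above, at 1.77. So the proportions of the 3 loci were close within cells and within control microvesicles, and the 2 construct microvesicle libraries differed from each other by more than the other groups did. They rest on 197 and 66 counts at RPL11, 55 and 47 at RPL22 and 37 and 83 at RPS27.

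The spread between replicates was also compared by share. The higher library of a group exceeded the lower by 1.08 to 1.22 times at the 3 loci in cells and by 2.11 to 2.13 times in control microvesicles. In construct microvesicles it was 5.52 times at RPL11, above control microvesicles, 2.17 at RPL22, close to them, and 1.21 at RPS27, below them. In control microvesicles the 3 loci thus kept their proportions while their shares differed between the libraries, and rows LINC01128 and TP53BP2 held 41.8% of library I and 68.5% of library II.

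**Figure D4:**
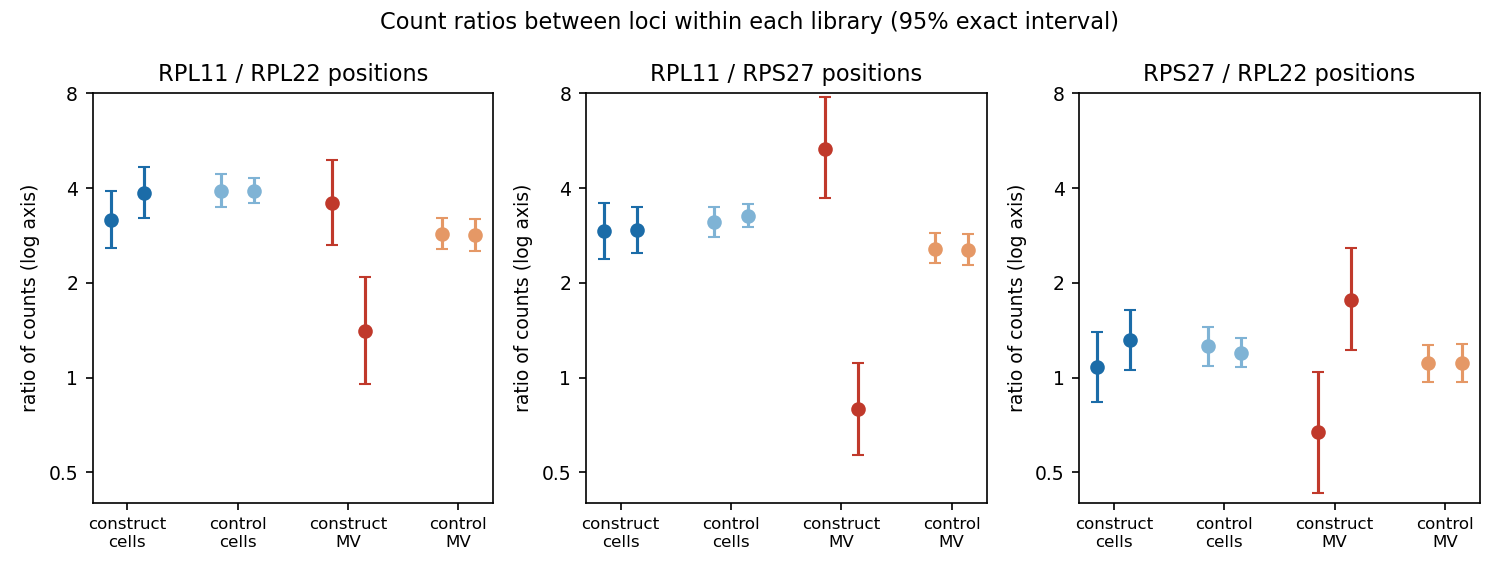
Ratios of counts between the positions of RPL11, RPL22 and RPS27 in each library (log axis), with exact 95% intervals from the counts; points in a group are libraries in the order of their numerals (MV, microvesicles). The 2 control microvesicle libraries lie together, below the control cells for RPL11 over RPL22, and construct microvesicles II and III part, at 5.32 and 0.795 for RPL11 over RPS27.

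Within the RPL11 position the 2 rows also shifted against each other. ZNF436-AS1 had 1.73 and 1.55 times the counts of ZNF436 in construct cells and 1.46 and 1.17 times in control cells. In microvesicles the ratio was 1.14 and 0.833 in construct and 0.962 and 0.840 in control libraries. All 4 microvesicle ratios were below all 4 cell ratios, with 1.17 and 1.14 as the nearest, whose intervals overlap (1.08 to 1.27 and 0.854 to 1.53). This ratio was chosen after the counts were seen and was not tested.

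Across the 8 libraries, log2(CPM + 1) of the 3 loci moved together, with Pearson's r of 0.97 between RPL11 and RPL22, 0.91 between RPL22 and RPS27 and 0.81 between RPL11 and RPS27. These are descriptions over 8 libraries that share depth and the split into cells and microvesicles. Of 953 rows with a mean of at least 100 CPM, those most like the RPL11 position were RRAGC (r = 0.99), ENSG00000270728 (0.95) and ENSG00000271895.1 (0.95). For RPL22 they were AL353354.2 (0.97), RYR2 (0.97) and RRAGC (0.96), and for RPS27 they were EFNA3 (0.97), MYOM3 (0.97) and INAVA (0.97). These are labels of hg19 rows, and GRCh38 places other genes at most of them. Row RRAGC overlaps MACF1 and HSPE1P8 there, ENSG00000270728 overlaps MICOS10, ENSG00000271895.1 EXOSC10, and AL353354.2 RCC1 and PRDX3P2. Row EFNA3 overlaps ADAM15 and DCST1 among others, MYOM3 overlaps NIPAL3 and STPG1, and INAVA overlaps CAMSAP2 and RPL34P6. Row RYR2 overlaps RYR2 itself, ZP4 and several others. The row labelled RRAGC held 100 and 168 counts in construct cells and 285 and 561 in control cells. It held 51 and 13 in construct microvesicles and 226 and 195 in control microvesicles, low in construct microvesicles III as the RPL11 rows were.

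Other genes of the translation machinery on chromosome 1 were taken from lists, by the same rule of position. Of the cytosolic ribosomal protein genes described here, RPL11, RPL22 and RPS27 had a row at their position, while RPL5, the partner of RPL11, had none. The row with the symbol RPL5 had 1, 1, 1 and 0 counts in the cell libraries and 0, 2, 5 and 26 in microvesicles. It was thus nearly empty in cells, as the rows RPL11 and RPL22 were.

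Of 10 genes of the mitochondrial ribosome, which translates the messages encoded in mitochondrial DNA, 9 had 14 rows at their positions, and 13 were tested. Rows MSTO1, MSTO2P, DAP3 and GON4L all lie across the span of a single gene, DAP3, introns included. The calls and medians below are therefore of rows and not of the 9 genes. In control cultures 7 of the 13 fell in microvesicles and 0 rose (median change -2.82), where 20.8% of all rows were called lower. Of the 4 cytosolic rows 0 were called in the main fit, with a median of -1.23, and their calls moved with the fit, as given above. In construct cultures 0 of 13 were called (edgeR), with a median of -0.36, where 4.22% of all rows were called lower. Between microvesicles 4 of 13 rose in construct libraries in the model of all 8 libraries (median 1.95, with 4.76% of all rows called higher). A fit of the microvesicle libraries alone called 0 of 1205 rows, and 0 of 1113 with the rows of the full test kept. The interaction was called for 2 of 13, both higher, where 1.71% of all rows were called higher. The most abundant in cells were WNT9A at the MRPL55 position, ENTR1P2 at MRPS14 and GON4L at DAP3. ENTR1P2 fell in control cultures (edgeR adjusted p = 0.00497), from 850 and 1264 counts in cells to 0 and 0 in microvesicles, and its counts were 337 and 453 in construct cells and 376 and 27 in construct microvesicles. GON4L fell too, from 538 and 723 to 58 and 250 (edgeR adjusted p = 0.0334). WNT9A had 1940 and 3203 counts in control cells and 1315 and 3 in control microvesicles and did not pass (edgeR adjusted p = 0.182).

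Translation factors were fewer. Of 23 rows at the positions of 5 of them, 11 were tested. In control microvesicles 2 fell and 0 rose (median change 0.42, with 20.8% of all rows called lower and 15.7% higher), and 0 were called in the other comparisons (edgeR). Most of these rows, such as MUL1, KIF17 and SH2D5, lie across the long span of a single gene, EIF4G3, introns included. The calls and the median are therefore not a result on the 5 factors. The most abundant in cells was ADGRB2 at the position of EIF3I, a subunit of initiation factor eIF3, with 2084 and 2944 counts in control cells and 660 and 75 in control microvesicles. MACF1, at the position of the poly(A)-binding protein gene PABPC4, had 662 and 1007 counts in control cells and 413 and 269 in control microvesicles.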

How the data were processed

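The deposited values are whole-number read counts per row. The authors made them with featureCounts 1.6.4 in single-read mode (strand setting 2, annotation GENCODE release 19), per the file headers, after alignment to hg19 by STAR, per the submitters' processing notes. Each library has 2 columns, R1 and R2, whose meaning is not given. They were added, and all 16 columns were used. R1 gave 48.2% to 52.6% of the counts of each member row with counts. If they are mates of 1 fragment, counts may not be independent and intervals may be too narrow. This applies most where rows on opposite strands are summed, as at the RPL11 position.

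The members and gene lists were chosen with earlier results of these data known, and 1 gene of the lists is not reported here. Named rows are all members, the rows with their symbols, the nearest 3 rows with a count on each side, the 3 most correlated rows among those of at least 100 CPM, and the most abundant rows of each list. Positions came from RefSeq on GRCh38.p14, used for names and sequences only. No protein sequences were used here. Tests used edgeR 4.0.16 (filterByExpr, 1 model of 4 groups, 4 residual degrees of freedom, prior 6.12), DESeq2 1.42.0 and limma 3.58.1 in R 4.3.3, and exact permutation of shares with scipy 1.17.1 in Python 3.11.15. The steps were tested on simulated data. Alternatives were other scalings and filters, each column alone, each library left out and the replicate block. Added after seeing the data were fits keeping the rows of the full test, without each library or with only the libraries compared.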

Additional observations from a re-analysis of the deposited data

How the results depend on the processing

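Of 4 member rows tested, the number called in control microvesicles against control cells rose from 0 to 1 with limma-voom, where 50% of all rows tested were called. It rose to 1 with only the libraries compared, where 37.6% of the 1304 rows then tested were called. The number also moved over fits that left out 1 library. Leaving out a library gave 0 to 2 calls in construct microvesicles against construct cells, 0 to 1 between microvesicles and 0 in cells. Cells compared alone with the same rows kept gave 1 call. Without the 2 dominant rows the share difference was -0.0972 points at RPL22 and -0.142 points at RPS27; leaving out 1 library it ran from -0.883 to -0.676 at RPL11, -0.204 to -0.159 at RPL22 and -0.264 to -0.212 at RPS27. Signs turned mostly in the interaction, below 0 in 43 of 104 values, and the cause was not tested. For ZNF436 it was -0.58 with limma-voom, -0.44 with R2 alone and -0.30 with the replicate block, and for ZNF436-AS1 -0.84, -0.53 (R1 alone) and -0.50. CHD5 gave 0.038 with RLE factors, 0.19 with library size alone, 0.39 with no filter and 0.032 with DESeq2, and NUP210L 0.13 with library size alone and 0.27 with no filter. Leaving out 1 library, the interaction ran from -1.75 to 1.25 for ZNF436, -2.20 to 1.26 for ZNF436-AS1, -1.15 to 0.73 for CHD5 and -0.45 to 0.095 for NUP210L. With the rows of the full test kept, the turned values were -1.56 and -2.005 for ZNF436 and ZNF436-AS1, 0.13 to 0.76 for CHD5 (0.34 without control cells I) and 0.062, 0.064 and 0.099 for NUP210L. Between microvesicles, leaving out 1 library, the range was -2.75 to 0.22 for ZNF436, -2.86 to 0.57 for ZNF436-AS1 and -1.78 to 0.065 for CHD5, with the values above 0, and 0.15 and 0.50 with rows kept, all without construct microvesicles III. The share difference of row RPL11 by symbol ran from -0.00022 (without construct microvesicles II) to 0.0036 points.

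The labels tie microvesicles and lysate to 1 sample, so the numeral was taken as a pair within a construct; deviations of paired libraries correlated at -0.0173 in construct and 0.0571 in control cultures over 1113 rows. The replicate block changed no call of a member row or of the row RPS27. Groups of 2, totals of 34602 to 64025 counts in the 4 construct libraries and 37 to 83 counts at RPL22 and RPS27 in construct microvesicles limit precision.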
